A study of Mus musculus with 17 samples.

Results

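The data describe erythroid blasts taken before transformation from mice that carry a Spi1 transgene, with and without the DNA repair gene Fanca. Among the 17 RNA-seq libraries of the series, the 7 preleukaemic libraries of model 1 were chosen by their sample titles. They are 4 TgSpi1FA+/+ libraries (TgSpi1Fanca.wt), called wt_138, wt_445, wt_451 and wt_479 after the number in their titles, and 3 TgSpi1FA-/- libraries (TgSpi1Fanca.ko), called ko_40, ko_77 and ko_224. All 7 mice carry the TgSpi1 transgene on a DBA2JxFVB/N background, so no library shows FANCA loss without it. The transgene was inherited from the DBA2/J parent and the disrupted Fanca allele from an FVB/N line, and the mice differ in Fanca as homozygous intact against homozygous disrupted. Each library is labelled with 1 mouse number and came from 400 ng of RNA fragmented for 8 min. The blasts were grown with erythropoietin (EPO), on which preleukaemic cells depend, and ages are not given. The table's column names and the source field call ko_40, ko_77 and ko_224 leukaemic, whereas their titles say preleukaemic. The titles were followed, and a figure legend of the paper likewise lists these 3 mouse numbers as preleukaemic. The column names and the source field still disagree with both, and an error in the titles would touch each comparison below.

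FANCA is a subunit of the Fanconi anaemia core complex, a nuclear ubiquitin ligase that acts at DNA interstrand crosslinks. The complex ubiquitinates the FANCD2 and FANCI pair, which recruits nucleases and homologous recombination factors to the lesion. Inherited loss of the pathway causes bone marrow failure, raises the risk of myeloid leukaemia and sensitises blood progenitors to aldehydes, inflammatory signals and p53. SPI1, also called PU.1, is an ETS factor that drives myeloid and B cell genes and opposes the erythroid factor GATA1. In the TgSpi1 mouse its excess blocks erythroid differentiation at the stage of the late progenitor called CFU-E.

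Values are read counts per gene scaled to the TMM-normalized library size and given as CPM, the usual per-library scaling of count tables. Total counts lay between 29964576 and 34846037 per library. Differences are log2 fold changes of TgSpi1FA-/- over TgSpi1FA+/+ cells from edgeR's quasi-likelihood fit of 13393 genes, with their standard error (SE). A gene was called at a Benjamini-Hochberg adjusted p under 0.05 with a fold change of at least 1.5. DESeq2's Wald test was an alternative with the same thresholds. With 3 against 4 libraries, an exact two-sided permutation test on 1 gene cannot give less than p = 0.0571.

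The 7 libraries had the transcripts of erythroid precursors at similar levels. Tfrc, the transferrin receptor, was between 1623 and 2220 CPM. Gata1, the master erythroid factor, lay between 378 and 575 CPM. Klf1, another erythroid transcription factor, lay between 262 and 351 CPM. Several defining genes of other blood cells were close to 0. Elane of granulocytes had 0 counts in all 7 libraries, and Cd79a of B cells, Cd3e of T cells and Adgre1 of macrophages did not exceed 0.222, 0.170 and 0.0952 CPM. The macrophage genes Cd68 and Csf1r reached 3.78 and 0.937 CPM, and megakaryocyte and mast cell genes were measurable (below). In bulk RNA, fewer cells of a type and less RNA per cell cannot be told apart.

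The libraries labelled wt_445 and wt_479 were nearly alike. Across genes, Pearson's r of log2(CPM + 0.5) was 0.997 between them and 0.940 to 0.959 for the other 5 TgSpi1FA+/+ pairs. The chi-square of their counts over its degrees of freedom was 8.56, against 145 to 189 in those pairs, so they differ by more than sampling noise and by far less than other mice. Of 10545 genes at 1 CPM or more, 96.5% lay within 1.5-fold between them. The Y-linked genes Kdm5d, Uty, Ddx3y and Eif2s3y were 2.23, 1.86, 2.24 and 2.15 times higher in wt_479. A second deposited table holds other, deeper counts from the same TgSpi1FA+/+ mice, and there they differed more. Their r was 0.971, against 0.927 to 0.955 for the other 5 pairs of that table, and 73.7% of genes at 1 CPM or more lay within 1.5-fold, against 57.2% to 64.4%. The first table's wt_445 was closer to the second table's wt_479 (r = 0.941) than to its wt_445 (r = 0.922), whereas wt_138, wt_451 and wt_479 were each closer to their own number than to the others. The library labelled wt_445 thus goes against its label in this comparison. Over all genes, the counts of calls and of genes at an unadjusted p under 0.05 are also given with both libraries summed to 1. DESeq2 calls of genes described below that this changes are given too. Within gene lists, counts at an unadjusted p treat both as separate libraries.

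The genotypes were not separated as blocks. TgSpi1FA-/- libraries had r between 0.959 and 0.961 with each other, and between 0.959 and 0.963 with TgSpi1FA+/+ wt_451. The lowest r among the 7, 0.932, was between wt_138 and ko_224.

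**Figure D1:**
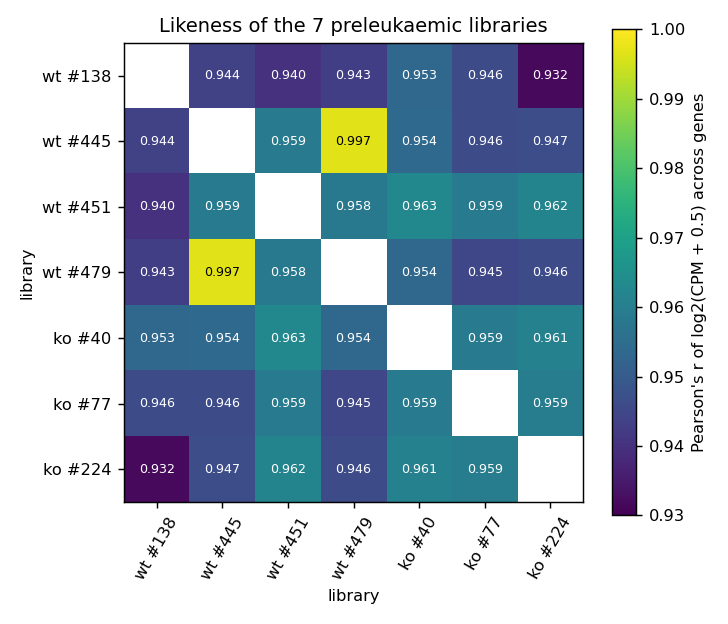
Pearson's r of log2(CPM + 0.5) across the 13393 genes tested for each pair of the 7 preleukaemic libraries, with the 4 TgSpi1FA+/+ libraries marked wt and the 3 TgSpi1FA-/- libraries marked ko. The pair wt_445 and wt_479 stands apart at 0.997, and wt_451 is as close to the 3 ko libraries (0.959 to 0.963) as they are to each other.

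Sex-linked transcripts varied within both groups. Xist, the RNA that silences an X chromosome in female cells, was at 834 CPM in wt_138, 765 in ko_40 and 1364 in ko_77, and at most 0.0317 CPM in the other 4 libraries. Eif2s3y, a Y-linked translation factor subunit, was at 15.7, 33.8 and 112 CPM in wt_445, wt_479 and ko_224 and at 0 elsewhere. Library wt_451 had neither Xist nor Y-linked transcripts, and ko_224 had no Ddx3y count beside its other Y-linked genes. Their part in the differences was not tested.

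Fanca (ENSMUSG00000032815, GRCm38 chromosome 8, minus strand, 123268300 to 123318576) was low in each TgSpi1FA-/- library. Its level was 83.5, 29.5, 71.4 and 28.2 CPM in TgSpi1FA+/+ wt_138, wt_445, wt_451 and wt_479. It was 0.615, 2.30 and 1.23 CPM in TgSpi1FA-/- ko_40, ko_77 and ko_224, from 19, 70 and 42 reads. The groups did not overlap. The log2 fold change was -5.26 (SE 0.65, edgeR adjusted p = 0.0760), and the gene passed the threshold with DESeq2 (adjusted p = 6.82e-18) and without wt_451 (edgeR adjusted p = 0.0498). The count of reads does not say which exons they came from, so residual transcript from outside the disrupted part is included.

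The other genes of the Fanconi pathway were not lost with Fanca. None of the 10 other core complex genes tested was called by edgeR or DESeq2. Fancg, an adaptor of the core complex, was between 24.6 and 29.6 CPM in TgSpi1FA+/+ cells and between 37.0 and 48.3 CPM in TgSpi1FA-/- cells, with no overlap (log2 fold change 0.60, SE 0.20, edgeR adjusted p = 0.535). Fancm, the translocase that anchors the complex on DNA, had 51.3, 30.1, 63.7 and 30.1 CPM in wt_138, wt_445, wt_451 and wt_479 against 67.1, 66.8 and 76.5 CPM in ko_40, ko_77 and ko_224 (0.68, SE 0.28, edgeR adjusted p = 0.557). Faap20, which binds ubiquitin beside FANCA, lay lower in TgSpi1FA-/- cells at 15.1 to 23.5 CPM, against 23.5 to 33.0 CPM, and the ranges met (-0.53, SE 0.20). Across the genes tested, 8.65% had an unadjusted p under 0.05 in edgeR, 3.52% higher and 5.13% lower. In the core complex list, 2 of 11 were higher and 2 lower at that level, Fanca among the latter.

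Downstream of the core complex, 15 of 18 genes of the FANCD2 and FANCI complex and its partners had a log2 fold change above 0, with a median of 0.17. Across all genes tested, 50.5% lay above 0 and the median was 0.005. Fancd2 was 76.95, 53.8, 70.3 and 51.5 CPM in wt_138, wt_445, wt_451 and wt_479, and 109, 60.8 and 138.2 CPM in ko_40, ko_77 and ko_224. Mouse ko_77 thus lay within the TgSpi1FA+/+ range (0.70, SE 0.28, edgeR adjusted p = 0.550). Xrcc2, a homologous recombination factor, was at 25.8, 24.9, 13.4 and 25.5 CPM against 32.7, 38.0 and 31.5 CPM in the same order, with no overlap (0.60, SE 0.24, edgeR adjusted p = 0.549). Rad50, of the MRE11 complex that senses breaks, was at 149 to 162 CPM against 166 to 192 CPM. Polq, the polymerase of microhomology-mediated end joining, lay at 69.0 to 83.5 CPM against 92.0 to 115 CPM (0.37, SE 0.12). Parp1, which marks single-strand breaks, went the other way, at 473 to 564 CPM against 271 to 446 CPM (-0.57, SE 0.22). None of these genes was called, and Parp1 in ko_224 lay in a run of neighbouring genes that were low together (below).

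Of the 13393 genes, edgeR called 1 between the genotypes (0.00747%). At an unadjusted p under 0.05 there were 1159 genes, 472 higher and 687 lower in TgSpi1FA-/- cells. DESeq2 called 250 genes (1.76% of the 14171 with an adjusted p), 34 higher (0.24%) and 216 lower (1.52%). With wt_445 and wt_479 summed, edgeR called 1 gene and DESeq2 130, of which 16 were higher and 114 lower. In that edgeR fit 745 genes had an unadjusted p under 0.05. Single mice decided these counts. The edgeR count was 16 without wt_451, 5 without wt_138 and 2 without ko_224, and the DESeq2 count was 121 without wt_445, 124 without wt_479 and 611 without wt_451. Without wt_451, 185 of the 611 genes were higher and 426 lower. The groups did not overlap for 571 genes in the higher direction (4.26%) and 572 in the lower direction (4.27%), together 8.53% of the genes tested.

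The 1 called gene was Rpsa-ps10 (ENSMUSG00000047676, GRCm38 chromosome 3, minus strand, 150072658 to 150073542), a processed pseudogene of the ribosomal protein gene Rpsa. It had 132, 143, 163 and 169 CPM in TgSpi1FA+/+ wt_138, wt_445, wt_451 and wt_479, and 0.388, 0.328 and 0.234 CPM in TgSpi1FA-/- ko_40, ko_77 and ko_224. The TgSpi1FA-/- leukaemic mice leukemic_26, leukemic_28 and leukemic_39 had 167, 128 and 129 CPM, so the 3 TgSpi1FA-/- preleukaemic libraries stood alone. The log2 fold change was -8.89 (SE 0.25, edgeR adjusted p = 3.69e-07). It stayed between -9.07 and -8.72 with any 1 mouse left out, with an edgeR adjusted p of at most 2.82e-05. Rpsa itself (ENSMUSG00000032518, chromosome 9) was at 20.1 to 24.6 CPM in TgSpi1FA+/+ and at 23.3 to 27.2 CPM in TgSpi1FA-/- cells.

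The pseudogene transcript of 885 bases aligned over its whole length to the Rpsa messenger RNA (GENCODE M21) with 6 differing bases, an identity of 99.3%. The 90 bases that follow, at chr3:150073324-150073413 on the minus strand, hold 2 of these 6 bases, given in capitals, and show how few positions can tell reads of both genes apart.
Rpsa-ps10: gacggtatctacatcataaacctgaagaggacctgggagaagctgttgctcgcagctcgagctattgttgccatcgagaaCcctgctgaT
Rpsa: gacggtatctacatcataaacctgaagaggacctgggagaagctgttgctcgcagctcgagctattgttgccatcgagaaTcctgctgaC
In the second table, scaled on its own, Rpsa was at 1730 to 2747 CPM in the same 4 TgSpi1FA+/+ mice, against 20.1 to 24.6 CPM in the first, and Rpsa-ps10 at 220 to 363 CPM. Both genes share nearly all of their sequence, so the split of reads between them is uncertain. A difference in sequence at this locus between the mice and a difference in transcription cannot be told apart in gene counts.

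Many of the DESeq2 calls were genes near 0 in TgSpi1FA-/- cells. In 76 of the 216 lower genes each TgSpi1FA-/- library had 3 counts or fewer, and in 35 of them all 3 libraries had 0. In 120 of the 216, mouse wt_451 had the lowest TgSpi1FA+/+ level, a share of 55.6% against 30.0% over all genes tested. In 166 of the 216 the 3 TgSpi1FA-/- leukaemic libraries all lay above the 3 preleukaemic ones. The 216 were chosen as low in these same preleukaemic libraries, so this count does not show a rise in leukaemic cells. On chromosome X lay 16 of the 216 (7.41%), against 3.25% of all genes tested, and the libraries with Xist were 1 of 4 in the one group and 2 of 3 in the other.

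Among the DESeq2 calls without overlap, 7 genes beside Rpsa-ps10 had the lowest fitted log2 fold changes. Ston2, an endocytic adaptor, had 6.82, 57.4, 0.288 and 57.7 CPM in TgSpi1FA+/+ wt_138, wt_445, wt_451 and wt_479 and 0 reads in each TgSpi1FA-/- library, at least 324-fold lower against a floor of 3 counts per library. Epop, a partner of the Polycomb complex PRC2, had 0.454, 19.3, 0.160 and 18.7 CPM against 0 reads, at least 102-fold lower. Both genes were highest in wt_445 and wt_479. Crim1, a BMP-binding membrane protein, had 41.8, 16.3, 0.0961 and 9.68 CPM against 1 read in all, a ratio of 1621 with a 95% counting interval from 291 to 64010. Pkp3, a desmosomal plakophilin, rested on wt_451 alone with 9.49 CPM, against at most 0.686 CPM in the other 3 TgSpi1FA+/+ mice and 0 reads in TgSpi1FA-/- cells. Itm2a, Armcx3 and Nlrc5 were at least 21.1-fold, 20.3-fold and 18.3-fold lower than the TgSpi1FA+/+ mean. Itm2a had 0.738, 3.53, 0.128 and 3.55 CPM in wt_138, wt_445, wt_451 and wt_479. Armcx3 had 4.57, 1.19, 0.0641 and 1.81 CPM in the same order. In wt_451 these were 4 and 2 reads, so that library was near 0 for both. NLRC5 activates MHC class I genes, and Nlrc5 had 2.22 to 2.38 CPM in wt_138, wt_445 and wt_479 but 0.0641 CPM in wt_451. None of the 7 was called by edgeR (adjusted p between 0.450 and 0.535). In the second table Ston2 had 12.8, 2.355, 0.316 and 12.6 CPM in wt_138, wt_445, wt_451 and wt_479. Crim1 had 27.3, 1.34, 0.0327 and 6.41 CPM there. Epop was at 10.6 CPM in wt_479 and at most 0.131 CPM in the others, and Itm2a did not exceed 0.381 CPM. Pkp3 was again high in wt_451, at 8.45 CPM. Armcx3 and Nlrc5 were at 2.81 and 3.37 CPM in wt_138 and at most 0.207 and 0.353 CPM in the others.

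A further group, chosen after its values were seen, was low in the 3 TgSpi1FA-/- preleukaemic libraries and higher in each of the other 7 libraries of model 1. Ggta1, which makes the alpha-Gal sugar of mouse cell surfaces, had 39.9, 13.0, 5.29 and 13.9 CPM in wt_138, wt_445, wt_451 and wt_479, and 0.0970, 0.164 and 0.0292 CPM in ko_40, ko_77 and ko_224. The leukaemic libraries had 75.8 to 85.8 CPM. Its log2 fold change was -7.51 (SE 0.88, edgeR adjusted p = 0.0712). Mvb12b, an ESCRT-I subunit, had 24.3, 14.4, 3.62 and 14.9 CPM against 0.0324, 0.0657 and 0.263 CPM (-6.82, SE 0.88, edgeR adjusted p = 0.0776). Inf2, an actin-severing formin, had 17.7, 48.0, 13.0 and 41.0 CPM against 0.259, 0.821 and 0.0292 CPM. Map4k4, a kinase upstream of JNK, had 48.6, 54.8, 6.19 and 49.4 CPM against 0.582, 1.22 and 0.643 CPM. In each of these genes wt_451 was the TgSpi1FA+/+ library nearest to the TgSpi1FA-/- ones. With no gene filtered out, the edgeR calls were Rpsa-ps10, Ggta1, Fanca and Mvb12b. In all, 325 genes lay below and 341 above the other 7 libraries. Model 2 holds 4 other TgSpi1FA+/+ preleukaemic libraries, from 300 ng of RNA fragmented for 2 min and scaled on their own. There preleukemic_837 was as low as the TgSpi1FA-/- libraries for Ggta1 and Mvb12b, at 0.0742 and 0.198 CPM. The other libraries of model 2 had at least 4.05 and 2.60 CPM. Map4k4 was at 0.504, 1.39 and 0.643 CPM in preleukemic_633, preleukemic_812 and preleukemic_837, and at 19.97 CPM in preleukemic_663. Inf2 was at 3.71 to 25.3 CPM.

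The DESeq2 calls held fewer higher genes (34) than lower ones (216), and the size differed between the 3 TgSpi1FA-/- mice. Six2, a homeobox factor of kidney progenitors, had 0.824, 20.3, 10.54 and 24.97 CPM in wt_138, wt_445, wt_451 and wt_479 and 185, 80.4 and 425 CPM in ko_40, ko_77 and ko_224 (log2 fold change 4.02, SE 0.93, DESeq2 adjusted p = 0.00190). Scmh1, a Polycomb protein, had at most 0.795 CPM in the TgSpi1FA+/+ cells of model 1 and 1.003, 18.0 and 39.4 CPM in ko_40, ko_77 and ko_224. Atp11a, a phospholipid flippase, had at most 0.128 CPM against 0.129, 2.07 and 6.26 CPM, so ko_40 was level with the TgSpi1FA+/+ cells for both. Mast4, a microtubule-associated kinase, was at 28.4, 20.4, 47.1 and 19.7 CPM against 115, 90.2 and 87.5 CPM (1.75, SE 0.29, edgeR adjusted p = 0.210, DESeq2 adjusted p = 1.33e-04). Il1r1, the signalling receptor of interleukin-1, had 8.04, 4.46, 2.12 and 1.08 CPM against 34.7, 27.6 and 10.3 CPM (2.62, SE 0.73). Alpk1, a sensor kinase upstream of NF-kB, had 5.76 to 11.9 CPM against 14.5 to 46.4 CPM (2.00, SE 0.45). Cbs, of transsulfuration, and Trib1, a pseudokinase that degrades C/EBP factors, were at most 1.03 and 0.199 CPM in the TgSpi1FA+/+ cells of model 1, against 2.90 to 10.2 and 0.585 to 2.62 CPM. All 8 were called by DESeq2 and none by edgeR with all 7 mice.

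**Figure D2:**
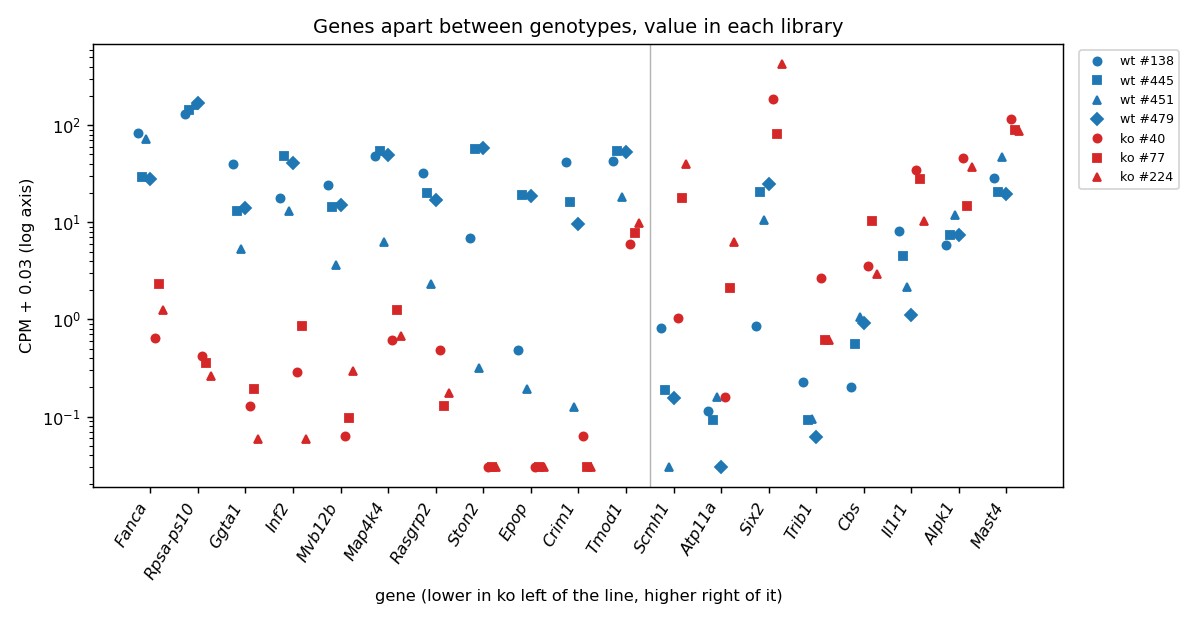
CPM + 0.03 on a log axis for each of the 7 libraries, with TgSpi1FA+/+ mice in blue and TgSpi1FA-/- mice in red. Rpsa-ps10 and Fanca are apart in each library, whereas for most other lower genes wt_451 (blue triangle) lies nearest to the red points, and Six2 spans 80.4 to 425 CPM among the red points.

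A PU.1 motif was looked for in the promoters of these genes because the mice overexpress SPI1. Sequences from 250 bases before to 50 bases after the start were taken from RefSeq (GRCm38.p6), which held 154 of the 216 lower and 25 of the 34 higher DESeq2 genes. The letters GAGGAAGT on either strand were in 6.19% of 210 promoters of the lower genes, in 0 of 35 promoters of the higher genes, in 3.11% of 12255 promoters of genes tested by edgeR and in 3.20% of all 32851 promoters. The GATA letters AGATAA on either strand were in 7.62%, 5.71%, 6.97% and 11.2% of these sets. The promoters of the 3 lower genes with the PU.1 letters and the lowest fitted log2 fold changes are shown, with the letters in capitals. Another promoter of Elmo1, at chr13:20472740-20473039, had 0 matches to the PU.1 letters and is not shown. Fmnl1 is at chr11:103170888-103171187 on the plus strand, Elmo1 at chr13:20090257-20090556 on the plus strand and Zdhhc15 at chrX:104671015-104671314 on the minus strand.
Fmnl1: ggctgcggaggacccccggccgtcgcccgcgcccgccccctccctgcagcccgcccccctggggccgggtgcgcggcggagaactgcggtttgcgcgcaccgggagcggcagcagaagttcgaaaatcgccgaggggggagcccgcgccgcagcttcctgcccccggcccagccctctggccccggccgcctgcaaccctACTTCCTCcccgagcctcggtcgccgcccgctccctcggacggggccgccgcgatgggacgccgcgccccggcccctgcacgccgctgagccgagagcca
Elmo1: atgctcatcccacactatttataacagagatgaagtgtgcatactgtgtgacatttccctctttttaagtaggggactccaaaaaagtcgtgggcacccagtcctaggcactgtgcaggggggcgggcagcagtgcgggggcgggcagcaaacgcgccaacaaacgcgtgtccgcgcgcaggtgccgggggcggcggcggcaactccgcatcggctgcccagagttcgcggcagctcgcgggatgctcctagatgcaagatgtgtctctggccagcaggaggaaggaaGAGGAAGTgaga
Zdhhc15: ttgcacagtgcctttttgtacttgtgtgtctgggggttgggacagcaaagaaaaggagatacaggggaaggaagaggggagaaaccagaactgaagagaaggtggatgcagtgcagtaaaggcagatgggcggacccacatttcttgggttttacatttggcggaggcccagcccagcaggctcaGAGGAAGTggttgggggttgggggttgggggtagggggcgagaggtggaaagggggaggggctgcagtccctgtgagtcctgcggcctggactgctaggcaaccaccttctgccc
Elmo1, which with DOCK proteins activates Rac, had 0.710, 13.4, 14.9 and 11.2 CPM in wt_138, wt_445, wt_451 and wt_479 and 0.0647, 0 and 0.175 CPM in ko_40, ko_77 and ko_224. Fmnl1, a leukocyte formin, had 0.284, 136, 17.4 and 130 CPM against 0.291, 0.525 and 0.0585 CPM, so wt_138 was as low as the TgSpi1FA-/- cells. Zdhhc15, a palmitoyltransferase, was above 1 CPM only in wt_445 and wt_479, and DESeq2 gave it no adjusted p with the pair summed. A match of letters does not show that SPI1 binds there. Spi1 itself had 467, 604, 1061 and 636 CPM against 670, 686 and 781 CPM, with overlap (0.04, SE 1.02).

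The p53 pathway had no common direction. Of the 33 p53 target genes tested, 17 had a log2 fold change above 0 and the median was 0.01. None was called by edgeR, 1 was higher by DESeq2, and 4 were higher and 4 lower at an unadjusted p under 0.05. Over all genes these shares were 0.239% higher by DESeq2, and 3.52% higher and 5.13% lower at that p. The DESeq2 call, Pmaip1, which encodes the BH3-only killer NOXA, rested on 1 mouse, with 20.6 CPM in ko_40 and 0 reads in the other 6. Ei24 was lower without overlap, at 86.5 to 111 CPM against 74.0 to 84.4 CPM (-0.36, SE 0.12). Trp53 itself varied more within than between genotypes. It had 220, 542, 37.8 and 547 CPM in wt_138, wt_445, wt_451 and wt_479 and 433, 526 and 0.790 CPM in ko_40, ko_77 and ko_224, so that 1 mouse of each genotype had little of it. Its log2 fold change was -0.07 (SE 1.92), and 0.50 without ko_224. Mdm2, the ubiquitin ligase that p53 induces, was 73.6 to 88.9 CPM against 67.3 to 86.6 CPM. Cdkn1a, which encodes the cell cycle inhibitor p21, was 33.2, 11.9 and 3.74 CPM in ko_40, ko_77 and ko_224, against 12.2 to 21.9 CPM. The lowest level of both genes was in ko_224, the mouse nearly without Trp53. In wt_451, also low in Trp53, Mdm2 was the highest of the 7 (88.9 CPM) and Cdkn1a the lowest of the TgSpi1FA+/+ mice (12.2 CPM). A link to Trp53 was not tested.

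Interferon-stimulated genes lay mostly lower, and within the TgSpi1FA+/+ group wt_138 and the pair were at opposite ends. Of 35 tested, 8 had a log2 fold change above 0 and the median was -0.56 (-0.46 with the pair summed). At an unadjusted p under 0.05, 3 were lower and 1 was higher, beside 5.13% and 3.52% of all genes. DESeq2 called 1 lower, beside 1.58% of all genes, or 0 with the pair summed. Xaf1, a pro-apoptotic interferon target and the DESeq2 call (adjusted p = 0.0111, or 0.112 with the pair summed), had 0, 17.4, 5.64 and 14.6 CPM in wt_138, wt_445, wt_451 and wt_479 and 0.485, 0.0657 and 0.234 CPM in ko_40, ko_77 and ko_224. Igtp, an interferon-gamma GTPase, was lower without overlap, at 12.4 to 19.6 CPM against 7.39 to 11.2 CPM (-0.89, SE 0.32). Bst2, the tetherin of viral budding, was at 29.3, 33.5, 35 and 34.8 CPM against 24.3, 21.6 and 25.6 CPM (-0.48, SE 0.19). Stat2, which carries the interferon signal to the nucleus, was the higher one, at 34.5 to 47.9 CPM against 49.5 to 53.4 CPM. The summed level of the list was 611, 1097, 781 and 1035 CPM against 872, 649 and 680 CPM, with overlap. Of 16 inflammatory and NF-kB genes tested, 5 lay above 0, none was called, and Il1b was above 1 CPM only in wt_445 and wt_479.

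In TGF-beta and BMP signalling, 5 of 28 genes were lower and 2 higher at an unadjusted p under 0.05, beside 5.13% and 3.52% of all genes. DESeq2 called 3 lower, beside 1.58% of all genes, and also 3 with the pair summed, and the list's median was -0.22 (-0.38 with the pair summed). Bmpr1a, a type I BMP receptor, had 1.08, 19.5, 0.673 and 17.7 CPM in wt_138, wt_445, wt_451 and wt_479 and at most 0.0877 CPM in TgSpi1FA-/- cells (-7.46, SE 1.72, DESeq2 adjusted p = 1.82e-06). Tgfbr3, the betaglycan co-receptor, had 50.4, 68.8, 0.994 and 61.2 CPM against 2.52, 0.427 and 0 CPM, so wt_451 lay among the TgSpi1FA-/- libraries. In the second table Bmpr1a had 0.484, 0.0341, 0.882 and 0.511 CPM in wt_138, wt_445, wt_451 and wt_479. Tgfbr3 had 44.3, 4.11, 0.4465 and 0.642 CPM there. The high levels of both genes in wt_445 and wt_479 were thus not seen again. Gdf15, a stress-induced ligand of the family, was low in all cells at 0.417 to 0.738 CPM against 2 reads in the 3 TgSpi1FA-/- libraries, a ratio of 28.4 with a 95% counting interval from 7.87 to 235. Id2, a target gene and inhibitor of basic helix-loop-helix factors, was higher mainly in ko_40, at 96.7 CPM, with 12.4 and 5.88 CPM in ko_77 and ko_224 and 0.142 to 10.6 CPM in TgSpi1FA+/+ cells.

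Of 37 RAS and MAPK genes tested, DESeq2 called 2 lower, beside 1.58% of all genes, and called both with the pair summed too. They were Rasgrp4 and Rasgrp2, which encode guanine nucleotide exchange factors. At an unadjusted p under 0.05 these 2 were lower, beside 5.13% of all genes. Rasa1 and Sos2, the latter another exchange factor, were higher at that p (0.52, SE 0.23, and 0.41, SE 0.18), beside 3.52%. Rasgrp4 had 4.86, 27.6, 6.67 and 17.3 CPM in wt_138, wt_445, wt_451 and wt_479 and 1.49, 0.460 and 0.380 CPM in ko_40, ko_77 and ko_224 (-4.18, SE 0.81, edgeR adjusted p = 0.378). Rasgrp2 had 31.9, 20.1, 2.31 and 16.8 CPM against 0.453, 0.0985 and 0.146 CPM (-6.24, SE 1.24, edgeR adjusted p = 0.410). In the second table Rasgrp2 had 3.08, 0.148, 5.11 and 1.04 CPM in wt_138, wt_445, wt_451 and wt_479. Rasgrp4 had 7.15, 19.9, 30.4 and 1.98 CPM there. The median of the list was -0.005. Among 36 WNT genes tested, 3 were lower and 1 higher at an unadjusted p under 0.05, beside 5.13% and 3.52% of all genes. These 4 encode frizzled receptors. DESeq2 called 1 of the 36 lower, beside 1.58% of all genes. Fzd5, the one called lower by DESeq2, had 21.0, 9.67, 5.90 and 8.28 CPM against 4.98, 3.22 and 1.37 CPM (-1.81, SE 0.55, DESeq2 adjusted p = 0.0496, or 0.140 with the pair summed). Fzd2, Fzd4 and Fzd8 did not exceed 1.78 CPM in any library. Of 31 NOTCH genes tested, none had an unadjusted p under 0.05 and none was called by either tool.

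Cell cycle lists differed little in size. Of 35 genes of G2 and M phase, 10 had a log2 fold change above 0, with a median of -0.11, and 7 lay lower without overlap, beside 4.27% of all genes. None was called. Ccnb2, a mitotic cyclin, had 179, 187, 188 and 208 CPM in wt_138, wt_445, wt_451 and wt_479 and 137, 153 and 140 CPM in ko_40, ko_77 and ko_224 (-0.41, SE 0.12, edgeR adjusted p = 0.535). Ube2c, the ubiquitin-conjugating enzyme of the anaphase-promoting complex, was at 231 to 259 CPM against 190 to 205 CPM (-0.34, SE 0.12). Aurkb, a kinase of the chromosomal passenger complex, was at 145 to 167 CPM against 120 to 142 CPM (-0.25, SE 0.10). Anln, an actin binder of the cleavage furrow, was higher, at 95.9 to 153 CPM against 109, 232 and 202 CPM. Of 40 S phase genes, 20 lay above 0. Pole, the leading-strand polymerase, was at 111 to 165 CPM against 191 to 240 CPM (0.56, SE 0.19). Orc1, of the origin recognition complex, was at 42.1 to 59.1 CPM against 63.2 to 89.97 CPM, but Orc1 lay in low or high runs of chromosome 4 in wt_138 and ko_224.

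Glycolysis genes lay mostly lower, 15 of 21 with a median of -0.22. Slc16a3, a lactate exporter, had 30.7, 123, 23.7 and 87.5 CPM in wt_138, wt_445, wt_451 and wt_479 and 13.5, 9.32 and 3.63 CPM in ko_40, ko_77 and ko_224 (-2.91, SE 0.87, DESeq2 adjusted p = 0.0138, or 0.135 with the pair summed). Pkm, pyruvate kinase, was at 538 to 593 CPM against 529, 153 and 289 CPM, so ko_40 was close to TgSpi1FA+/+ cells. The pathway lists not described one by one had medians between -0.15 and 0.10, with at most 3 genes at an unadjusted p under 0.05 in either direction. Of 25 antioxidant genes, 1 was lower by DESeq2, beside 1.58% of all genes. It was Gstm1, a glutathione transferase at no more than 1.28 CPM (DESeq2 adjusted p = 0.0384, or 0.163 with the pair summed).

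**Figure D3:**
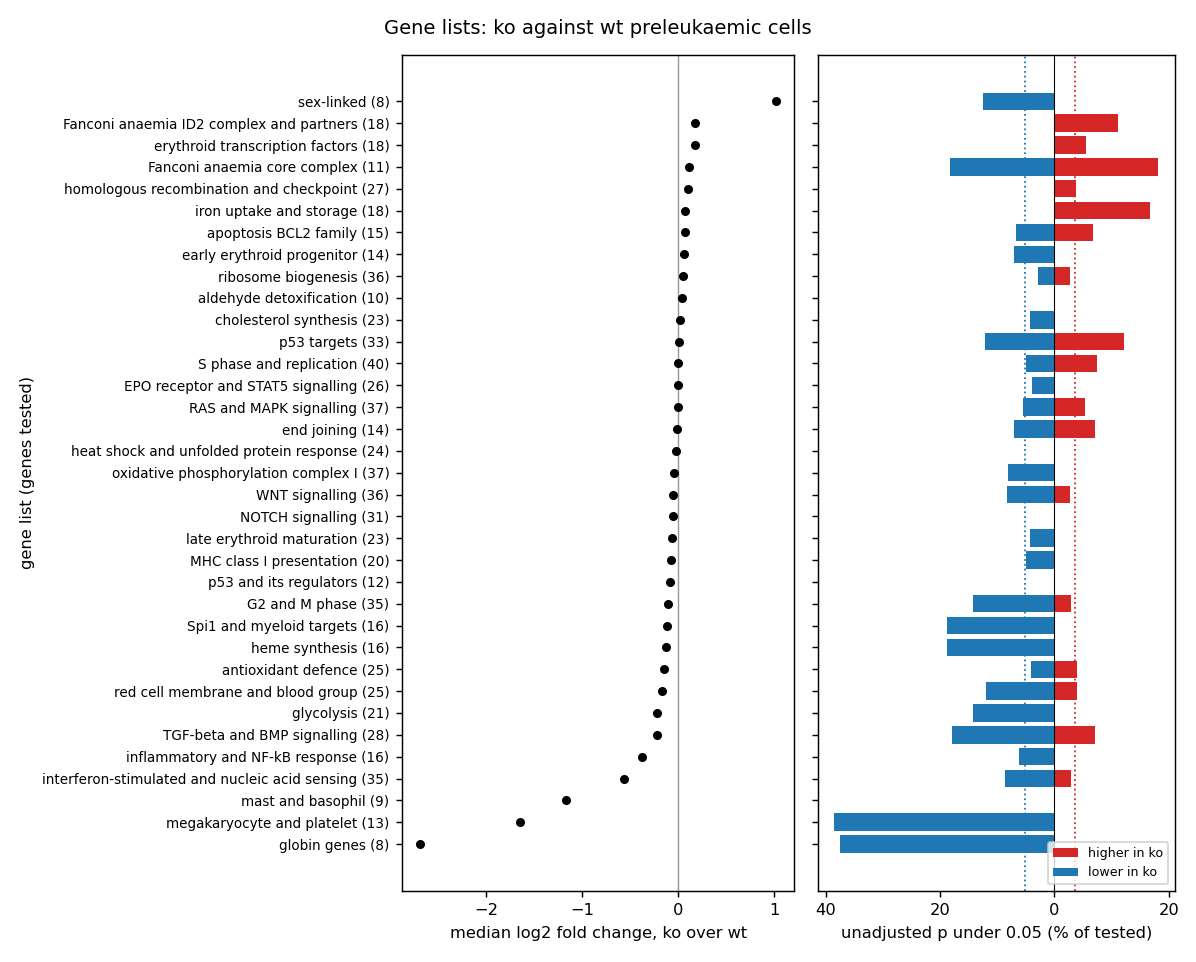
Left, median log2 fold change of TgSpi1FA-/- over TgSpi1FA+/+ preleukaemic cells for each gene list with at least 8 genes tested. Right, the share of each list with an unadjusted p under 0.05 in edgeR, higher in red and lower in blue, with dotted lines at the shares of all genes (3.52% and 5.13%). Globin and megakaryocyte lists lie furthest to the left.

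Erythroid transcription factors lay somewhat higher in TgSpi1FA-/- cells, with no gene called. Of 18 erythroid transcription factors, 13 had a log2 fold change above 0, with a median of 0.17. Their summed level was 4827, 5300, 5167 and 5220 CPM in wt_138, wt_445, wt_451 and wt_479 and 5921, 5607 and 6009 CPM in ko_40, ko_77 and ko_224, with no overlap. Lmo2, a bridging subunit of the GATA1 complex, was at 372 to 491 CPM against 814, 582 and 545 CPM (0.57, SE 0.23, edgeR adjusted p = 0.549), and its lowest value, in wt_451, lay in a low run of chromosome 2. Epor, the EPO receptor, was higher without overlap, at 106, 108, 120 and 116 CPM against 135, 156 and 160 CPM (0.42, SE 0.20, edgeR adjusted p = 0.603). Kit, the stem cell factor receptor of early progenitors, overlapped, at 203 to 435 CPM against 273 to 378 CPM. Gab1, an adaptor of EPO signalling, was lower, at 67.2 to 76.7 CPM against 31.5, 18.4 and 52.9 CPM (-1.05, SE 0.34, edgeR adjusted p = 0.535).

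Genes of haemoglobin production leaned to lower levels. All 8 globin genes tested had a log2 fold change below 0, with a median of -2.69. At an unadjusted p under 0.05 there were 3 of them, beside 5.13% of all genes lower. None was called by edgeR or DESeq2, and DESeq2 called 1 lower with the pair summed. The adult genes overlapped. Hbb-bt, an adult beta globin, had 93.9, 1026, 544 and 1136 CPM in wt_138, wt_445, wt_451 and wt_479 and 97.7, 388 and 168 CPM in ko_40, ko_77 and ko_224 (-1.68, SE 1.09). Hba-a1, adult alpha globin, had 397, 490, 121 and 537 CPM against 180, 460 and 222 CPM (-0.43, SE 0.55). The list's median was set by genes of low level. Hbb-bh1, an embryonic beta globin, was at 9.77 CPM in wt_138 and at most 0.686 CPM in the other 6. Hbq1b, a theta globin, was at 3.64, 2.90, 0.449 and 4.79 CPM against 0.324, 0.492 and 0.790 CPM, and Hbb-bh2 did not exceed 1.35 CPM. The summed globin level was 1572, 4091, 2343 and 4673 CPM against 1846, 1827 and 1904 CPM, so wt_138 lay below each TgSpi1FA-/- library. In heme synthesis, 12 of 16 genes lay below 0, with 3 at an unadjusted p under 0.05, beside 5.13% of all genes lower. Fech, which inserts iron into heme, was at 187 to 372 CPM against 135 to 201 CPM, and in ko_77 it lay in the low run of chromosome 18. Alas2, of the same list, overlapped at 89.3 to 120 CPM against 174, 91.1 and 73.2 CPM (0.13, SE 0.58). In late erythroid maturation, 9 of 23 genes lay above 0, with a median of -0.07. Its sums overlapped, at 3188, 5576, 7090 and 5640 CPM against 2855, 5561 and 7212 CPM.

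Of the iron and membrane genes, 1 was called by DESeq2 and none by edgeR. Slc40a1, the iron exporter ferroportin, was higher without overlap, at 71.8 to 88.3 CPM against 107, 127 and 139 CPM (0.60, SE 0.17, edgeR adjusted p = 0.535). Tfr2, the second transferrin receptor, had 153, 79.8, 146 and 85.6 CPM against 182, 213 and 291 CPM (0.98, SE 0.35, edgeR adjusted p = 0.535). Among 25 red cell membrane genes, DESeq2 called only 1, beside 1.58% of all genes lower. This was Tmod1, tropomodulin of the spectrin skeleton. It had 43.0, 53.6, 18.2 and 52.3 CPM in wt_138, wt_445, wt_451 and wt_479 and 5.89, 7.81 and 9.74 CPM in ko_40, ko_77 and ko_224 (-2.42, SE 0.38, edgeR adjusted p = 0.188, DESeq2 adjusted p = 8.77e-07, or 1.24e-04 with the pair summed). Ermap, a blood group protein, was higher, at 692 to 710 CPM against 900, 827 and 1337 CPM (0.54, SE 0.20).

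Megakaryocyte and platelet genes were the lineage list with most DESeq2 calls, 3 of 13 tested, beside 1.58% of the genes tested by edgeR, and the same number with the pair summed. Only 2 of the 13 had a log2 fold change above 0, and the median was -1.64. Treml1, a receptor of platelet granules, had 1.87, 6.43, 1.63 and 7.90 CPM in wt_138, wt_445, wt_451 and wt_479 and 0.129, 0.263 and 0.0585 CPM in ko_40, ko_77 and ko_224 (-4.87, SE 1.02, DESeq2 adjusted p = 9.79e-06). Vwf, von Willebrand factor, had 1.82, 4.09, 1.19 and 3.71 CPM against 0.129, 0.460 and 0.205 CPM (-3.34, SE 0.70, DESeq2 adjusted p = 1.16e-04). F2r, the thrombin receptor PAR1, had 43.8, 147, 0.224 and 151 CPM against 0.129, 0 and 0.790 CPM, so wt_451 was as low as the TgSpi1FA-/- mice. In the second table F2r had 32.6, 0.171, 0.338 and 10.6 CPM in wt_138, wt_445, wt_451 and wt_479. Treml1 had 3.12, 0.341, 2.025 and 2.85 CPM there, and Vwf 7.15, 4.84, 2.505 and 0.955 CPM. Itga2b, the alpha subunit of the fibrinogen receptor, was at 29.7, 56.0, 34.2 and 44.8 CPM against 21.8, 20.6 and 16.1 CPM (-1.08, SE 0.34, edgeR adjusted p = 0.535). The summed level of the list was 134, 493, 141 and 497 CPM against 93.8, 100 and 149 CPM, so the genotypes overlapped and the high sums were those of the pair.

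The defining genes of mature myeloid cells were scarce in both genotypes. Of 37 genes in the list of Spi1 and myeloid targets, 16 passed the filter, 6 of them above 0. DESeq2 called 2 lower, beside 1.58% of all genes, or 1 with the pair summed. Ncf4, of the phagocyte oxidase, had 3.12, 17.6, 2.92 and 14.5 CPM in wt_138, wt_445, wt_451 and wt_479 and 1.20, 0.722 and 0.146 CPM in ko_40, ko_77 and ko_224 (-3.79, SE 0.93, DESeq2 adjusted p = 2.77e-04, or 0.00837 with the pair summed). Tyrobp, the DAP12 adaptor, had 5.06, 1.34, 2.56 and 2.29 CPM against 0.421, 0.0657 and 0.234 CPM. Lyz2, a lysozyme and the other DESeq2 call, did not exceed 1.498 CPM (adjusted p = 0.0369, or 0.264 with the pair summed). The macrophage and neutrophil lists, of which 4 and 1 genes passed the filter, summed to 3.35 to 8.78 and 0.146 to 0.852 CPM over the 7 libraries. Mast cell and basophil genes summed to 502, 197, 257 and 168 CPM against 156, 313 and 189 CPM.

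The sums of other lineages differed between libraries. The B cell list summed to 85.0 CPM in wt_138, 88.1 CPM in ko_40, 1.25 CPM in wt_451 and 22.6 to 38.7 CPM in the other 4. The T and NK cell list summed to 11.3, 5.96, 1.06 and 6.95 CPM in wt_138, wt_445, wt_451 and wt_479 and to 1.49, 1.51 and 0.877 CPM in ko_40, ko_77 and ko_224, so wt_451 lay among the TgSpi1FA-/- libraries. Of its 3 genes tested DESeq2 called Trbc2, a T cell receptor constant gene, lower (adjusted p = 0.0364, or 0.146 with the pair summed), beside 1.58% of all genes. The stroma list was highest in ko_40, at 276 CPM against 3.65 to 53.4 CPM in the other 6, and 273 CPM of this came from Col1a2. Of its 3 genes tested DESeq2 called Thy1 lower (adjusted p = 0.0221, or 0.0456 with the pair summed), beside 1.58% of all genes. Thy1 had 0.312 to 3.61 CPM in TgSpi1FA+/+ cells and 1 read in all in TgSpi1FA-/- cells. The endothelial list summed to 76.1 to 103 CPM in TgSpi1FA+/+ and 30.3 to 115 CPM in TgSpi1FA-/- cells. The share of mitochondrial transcripts was 0.999%, 0.587%, 1.43% and 0.404% in wt_138, wt_445, wt_451 and wt_479 and 1.20%, 1.31% and 1.37% in ko_40, ko_77 and ko_224. The part of these differences in the results was not tested.

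**Figure D4:**
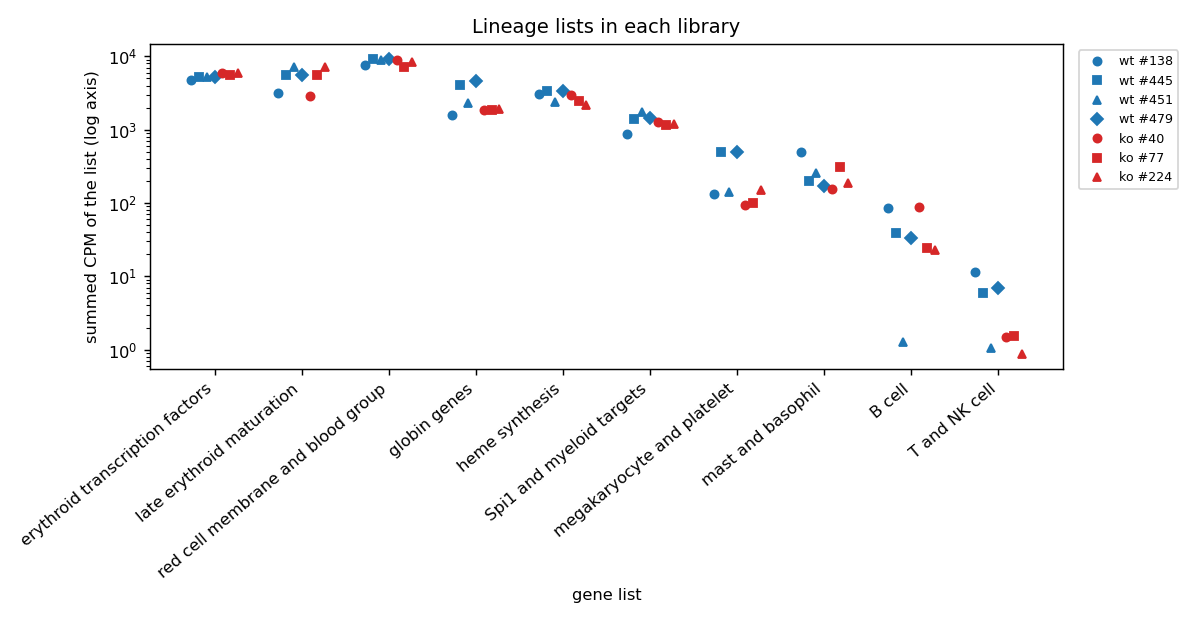
Summed CPM of each lineage list on a log axis in the 4 TgSpi1FA+/+ (blue) and 3 TgSpi1FA-/- (red) libraries. Globin and megakaryocyte sums are highest in wt_445 and wt_479 (4091 and 4673, and 493 and 497 CPM), and the B cell sum is lowest in wt_451 (1.25 CPM).

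Runs of neighbouring genes were offset together in single libraries of both genotypes. This was looked for after the values had been seen. For 8350 genes with a mean of at least 10 CPM, the log2 offset of each library from the median of the 7 was ordered along the chromosomes, and a run was kept where the median over 15 neighbours stayed beyond 0.5 for at least 15 genes. There were 4 such runs in wt_451, 5 in ko_224, 1 each in wt_138, wt_445, wt_479 and ko_77, and 0 in ko_40. In ko_77, nearly the whole of chromosome 18 was low, 197 of its 211 genes in 1 run (6435951 to 84589725) at a median of 0.530 times the 7-library median, with 97.5% of them below it. In wt_451, chromosome 13 was low over 2 runs of 153 and 110 genes at 0.602 and 0.631 times, as were 195 genes of chromosome 2 (62595798 to 125674785) at 0.575 times and 33 genes of chromosome 5 (20882191 to 25705825) at 0.519 times. In ko_224, 58 genes of chromosome 4 (53030787 to 99259787) were at 0.528 times, between runs of 34 and 54 genes at 1.46 and 1.49 times, and 2 runs of chromosome 1 were at 0.632 and 0.633 times. In wt_138, 53 genes of chromosome 4 (94567514 to 115879250) were at 0.562 times.

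The pair wt_445 and wt_479 shared 1 high run, 27 genes of chromosome 5 from 32458843 to 35105766 at 2.77 and 2.90 times the median. It holds Slbp, Add1 and Nop14, which had 462 and 495, 881 and 957, and 508 and 537 CPM in this pair and at most 137, 231 and 208 CPM in the other 5 libraries. In the second table, measured against its own 4-library median, the runs of wt_451 were seen again in wt_451, at log2 offsets of -0.75 and -0.78 on chromosome 13, -0.77 on chromosome 2 and -1.11 on chromosome 5. The chromosome 4 run of wt_138 was not seen there (log2 offset -0.05), and the chromosome 5 run was at 0.05 in wt_445 and 0.35 in wt_479. The runs held 12.3% of the 8350 genes and 14.3% of the 63 DESeq2 calls among them. Heatr1, Rasa1 and F2r lay in the low chromosome 13 of wt_451, Xrcc2 in its chromosome 5 run, and Parp1 in a low run of ko_224. Mast4 also lay within the chromosome 13 run of wt_451 but was not itself low there. Its 47.1 CPM in wt_451 was the highest TgSpi1FA+/+ level. DNA copy number was not measured in these libraries, and what moves these runs was not tested.

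**Figure D5:**
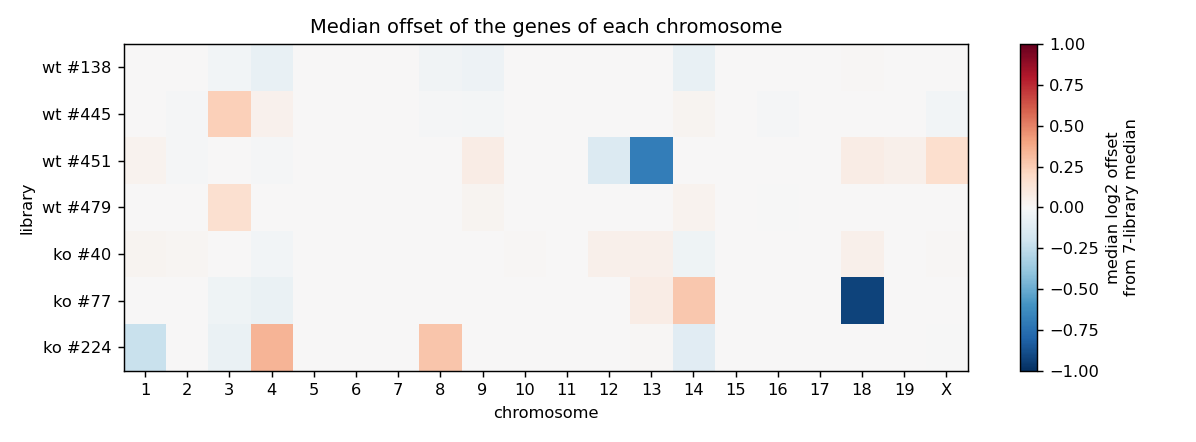
Median log2 offset of the genes of each chromosome (columns) in each library (rows) from the median of the 7 libraries, blue for lower and red for higher, for genes with a mean of at least 10 CPM. Chromosome 18 of ko_77 (0.527 times) and chromosome 13 of wt_451 (0.621 times) are the darkest cells, and most cells are near 0.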

How the data were processed

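The 7 preleukaemic libraries of model 1 were stranded poly(A) RNA-seq of cultured blasts. The authors deposited raw read counts per gene, and the submitters' processing notes name bcl2fastq 2.17.1.14, STAR 2.5.3a, HTSeq 0.6.1p1 and GRCm38 (mm10). Counts of 26029 genes were filtered with filterByExpr, TMM-normalized and fitted with edgeR 4.0.16 (R 4.3.3) over the 3 groups of model 1, the TgSpi1FA-/- leukaemic libraries included, so that all 10 libraries set the dispersion. DESeq2 1.42.0 was the other test. Bounds against groups at 0 use 3 counts per library, and counting intervals (95%, Poisson) cover counting error only. Reads were not counted by molecular identifiers. Where nothing but the mouse number separates libraries, p-values measure the spread between these mice. Fits that do not sum wt_445 and wt_479 count this nearly alike pair as 2 mice. Their p-values and SEs can therefore understate that spread. Named were each gene called by edgeR, Fanca, up to 8 genes per direction with the largest fold among DESeq2 calls without overlap, up to 5 genes per list at an unadjusted p under 0.05, and fixed anchors. The members and gene lists were chosen with earlier results of these data known. Alternatives were DESeq2, other filters and size factors, wt_445 and wt_479 summed, and each mouse left out. Columns were assigned to groups by sample titles. The authors' gene annotation release is not given in the sources used here.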

Additional observations from a re-analysis of the deposited data

Results flagged for a closer look

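In 11 of the 129 named genes, 1 TgSpi1FA+/+ library lay far from the other 3, by Dixon's test of the gap to the nearest library over the group's range at the 95% level. For independent and normally distributed values, chance alone gives such a gap in about 1 in 20 groups. These CPM were not log-transformed and include the pair wt_445 and wt_479, so that rate need not hold here. Mouse wt_451 stood apart for Pkp3 (9.49 CPM, others at most 0.686), Nlrc5 (0.0641 CPM, others at least 2.21), Xrcc2 (13.4 CPM, others at least 24.9), Tfrc (1844 CPM, others at least 2090) and Map4k4 (6.18 CPM, others at least 48.6). Mouse wt_138 stood apart for Rad50 (161.5 CPM, others at most 148.8), Fzd4 (1.73 CPM, others at most 0.190), Hbb-bh1 (9.77 CPM, others at most 0.686), Armcx2 (51.8 CPM, others at most 4.37), Bcl11a (172 CPM, others at least 300.4) and Xist (834 CPM, others at most 0.0317). The libraries labelled wt_445 and wt_479 count as separate in this comparison, although they are nearly alike. Xrcc2 in wt_451 lay in a low run of chromosome 5.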

How the results depend on the processing

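No paired analysis was possible because the groups share no replicate numbers. The count of called genes was 1 in the edgeR fits with all mice and a filter, 4 without a filter on low counts, 250 with DESeq2 over 3 groups, 248 with DESeq2 over the 7 libraries and 130 with DESeq2 and wt_445 and wt_479 summed. With 1 mouse left out it was 1 to 16 in edgeR, and in DESeq2 it was 121 without wt_445, 124 without wt_479, 611 without wt_451, 350 without wt_138, 267 without ko_77, 175 without ko_224 and 340 without ko_40. DESeq2 on the summed pair and with mice left out was added after the data had been seen. Fanca, at -5.26, passed the threshold with DESeq2 over 3 groups (-5.29), over 7 libraries (-5.28) and with the pair summed (-5.49), without a filter (-5.27), and in 1 fit with a mouse left out, over which its log2 fold change was -5.85 to -4.91 and its edgeR adjusted p 0.0498 to 0.382. Directions turned only for genes that edgeR had not called, of which DESeq2 had called Pmaip1. With the pair summed, Spi1 went to -0.01 (edgeR) and -0.026 (DESeq2), Trp53 to 0.254 and 0.247, and Cdkn1a to 0.01 and 0.002. With 1 mouse left out, log2 fold changes ranged over Pmaip1 0 to 11.466, Spi1 -0.106 to 0.315, Kit -0.022 to 0.414, Tfrc -0.221 to 0.001, Gata1 -0.164 to 0.149, Alas2 -0.325 to 0.357, Trp53 -0.642 to 0.498, Mdm2 -0.134 to 0.035, Mdm4 -0.259 to 0.018, Cdkn1a -1.129 to 0.392, Uty -10.827 to 2.943, Kdm5d -9.794 to 3.308, Eif2s3y -11.722 to 2.838 and Bcl11a -0.06 to 0.197. The cause of these changes was not tested. Of the gene values under all alternatives, 1834 kept direction and side of the threshold, 132 passed it newly and 27 turned, and 48 list medians moved by over 1 SD whereas 441 did not. The neutrophil median could not be computed in 3 fits, where no gene of that list passed the filter. Genes near 0 counts in a group are limited by depth, and their fitted folds depend on the prior count.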
